A study of Zea mays with 4 samples.

Results

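Among the 388 pseudouridine (Ψ) sites listed for maize shoots, 37 lay in a coding sequence, directly after a U and directly before a G, in a gene with no other listed site. They were chosen by sequence and annotation only: the site is base 11 of the 21-base window listed with it, base 10 had to be U and base 12 had to be G. The list held 315 coding sites, of which 267 were the single site of their gene, so that 230 coding sites of single-site genes remained for comparison. In 42 of these 230 the site stood after U and before C (UΨC), in 58 between G and G (GΨG) and in 90 between C and C (CΨC). Another 18 sites had the same 3 bases (UΨG) and were no part of the set, 6 in coding sequences of genes with several sites and 12 outside coding sequences.

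The plants were of the inbred line B73 (Zea mays) and were harvested as week-old seedlings, and polyadenylated RNA of their shoots was examined by BID-seq (bisulfite-induced deletion sequencing). In this assay reverse transcriptase tends to skip a Ψ that has reacted with bisulfite and leaves a gap in the read. There were 4 libraries, 2 of untreated RNA (input) and 2 of bisulfite-treated RNA. The authors used a calibration curve to convert the share of gapped reads into a stoichiometry. The list combines the replicates, so it has no value per library, no replicate SD and no total depth of a library, and nothing below was compared across conditions.

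Pseudouridine is an isomer of uridine in which the base is joined to the sugar through carbon instead of nitrogen. It still pairs with A, and it is made after transcription by pseudouridine synthases, some of which recognise a short sequence or a loop and others of which are guided by a small RNA. In mammalian mRNA, runs of U followed by G are among the contexts in which BID-seq has found Ψ. A gap in a run of identical bases can be placed at any base of the run, so in all 37 sites the gap marks the run and not a single U.

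Each site has 3 deposited measures. The depth is the number of reads at the site, the gap ratio is the share of these reads with a gap, and the fraction is the gap ratio converted to a Ψ stoichiometry by a calibration specific to the surrounding bases. Gap ratios are given with Wilson 95% intervals, which cover counting error only and treat reads as independent. They leave out variation between replicates, and they are too narrow where reads are not independent molecules. The error of the calibration is unknown, and no interval is given for a fraction.

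The windows of the 8 sites with the highest fraction among those with at least 40 reads are shown first, because the values below are described mainly around them. They run 5′ to 3′ as RNA, and the capitals mark the run of U that ends at the listed site, with the G that follows it. The printed window of LOC100037776 differs from the window listed along its transcript.
LOC100274134 (vignain): auguccaggUUGauuggaggc
LOC100384406: uugcuugccUUGgcacgaaca
LOC103633442: accggcuggUUGgagaacuga
LOC100216796: uugggcaggUUGcugguggag
LOC103648029: uauaugggUUUGuagcaucua
LOC100191930: agagcacgaUUGcuggcauug
LOC100037776 (ppt1): ccagcagugUUGcagucugcu
LOC100275271: cgugggugcUUGcagguuguc
The longest run of U in the set had 4 bases and is shown for that reason.
LOC100272866: ugcccucUUUUGcaaagaggg
All 37 windows were different, and none was shared with another listed site.

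The 37 sites lay on chromosomes 1 to 10, with 15 on the plus and 22 on the minus strand of Zm-B73-REFERENCE-NAM-5.0. Depth ran from 15 to 2746 reads with a median of 342, against a median of 460 for the other 230 coding sites. The gap ratio ran from 3.53% to 46.5% with a median of 8.65%, and the median of the others was 6.94%. Fractions ran from 6.29% to 80.7%, and their median was 26.6%, beside a mean of 30.8% ± 17.8 (SD across sites, n = 37). The others had a median fraction of 24.7%, a difference of 1.86 percentage points. Among sites with a pass score of 2, of which 8 were members, the difference was 6.83 points. Both are less than the SD across sites, which is not the error of a difference between medians. For UΨC sites the median fraction was 31.0%, for GΨG sites 19.0% and for CΨC sites 24.1%. Their median gap ratios were 7.06%, 7.54% and 6.91%, all below that of the members. This order differs from that of the fractions, which carry the calibration as well. No test was run over sites, since sites are not replicates. Of the 37 sites, 11 had a fraction under 20%, 22 had one from 20% to 50% and 4 had one over 50%, and in the other coding sites these classes held 78, 127 and 25.

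**Figure D1:**
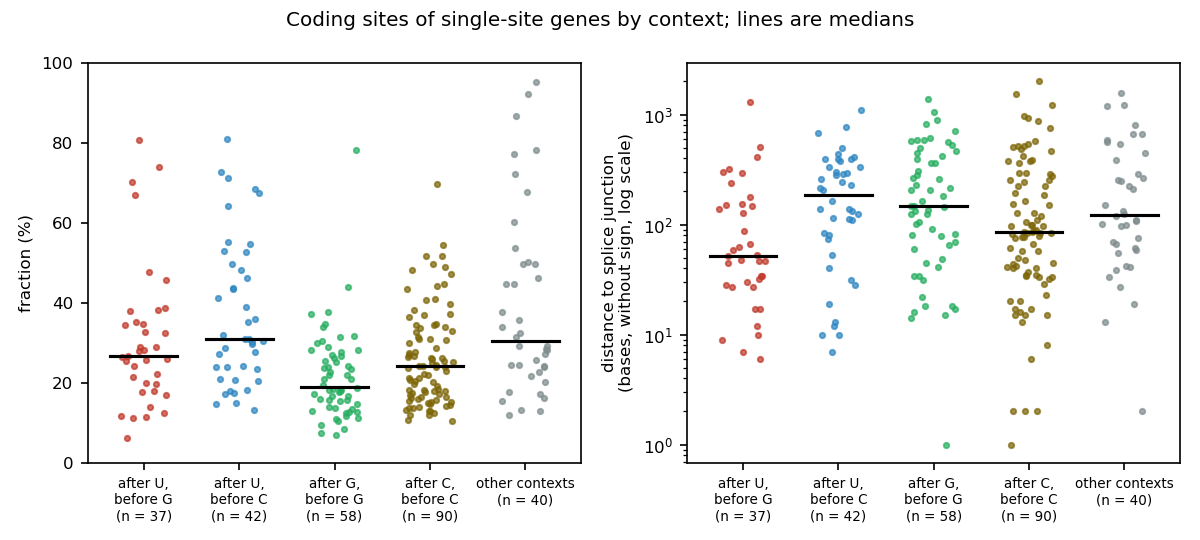
Each point is a coding site of a single-site gene, grouped by the bases before and after it, with the fraction (%) on the left and the distance to a splice junction without its sign (bases, log scale) on the right, and the lines are medians. The red points, the 37 sites after U and before G, had a median fraction of 26.6% and a median distance of 52 bases.

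The site in LOC100274134 had the highest listed fraction of the 37 members. This gene, Zm00001eb169010, carries the synonym vignain, the name of a papain-type cysteine protease of plants. It occupies chromosome 4, from 16651845 to 16653321 on the minus strand, and the site was at position 16652784. In this transcript 263 of 566 reads had a gap, a gap ratio of 46.5% (42.4% to 50.6%), and the fraction was 80.7%. Among the other members with at least 50 reads, no upper bound of the gap ratio exceeded 24.5%, so this interval lay clear of all of theirs. Of the 20 coding sites of single-site genes nearest to it in depth, with 494 to 663 reads, the highest gap ratio was 12.01%. Such neighbours, here and below, were taken from all 267 coding sites of single-site genes, members included. The listed U was the last base of a GUU codon for valine 155, and the site lay 52 bases from a splice junction.

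The next 3 fractions rested on few reads. LOC118473251 had 6 gapped reads of 15, a gap ratio of 40.0% (19.8% to 64.3%) and a fraction of 74.0%. LOC118477033 had 7 of 20, a gap ratio of 35% (18.1% to 56.7%) and a fraction of 70.2%. LOC100192627 had 9 of 28, a gap ratio of 32.1% (17.9% to 50.7%) and a fraction of 66.9%. These 3 intervals overlapped each other and that of LOC100274134, so the order of the 4 gap ratios was not resolved at this depth. The 4 fractions over 50% rest on these gap ratios and on the calibration, so their order was not established either. The other site under 50 reads, in LOC103633442, had 8 gapped reads of 48, a gap ratio of 16.7% (8.70% to 29.6%) and a fraction of 45.7%. Without the 4 sites under 50 reads, 1 fraction over 50% remained, that of LOC100274134.

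LOC100384406, on chromosome 9 at position 8436723, had 27 gapped reads of 153, a gap ratio of 17.6% (12.4% to 24.5%) and a fraction of 47.6%. LOC100216796, on chromosome 1 at position 155167406, was the best covered of the sites with a high fraction. There 161 of 1616 reads had a gap, a gap ratio of 9.96% (8.60% to 11.5%), and the fraction was 38.6%. Its interval did not overlap that of LOC100281780, a member of nearly equal depth (chromosome 9, position 158539341) with 102 gapped reads of 1678, a gap ratio of 6.08% (5.03% to 7.33%) and a fraction of 26.4%. Among the 20 coding sites of single-site genes nearest to LOC100216796 in depth, 1 had a higher gap ratio, and their median was 4.79%.

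Fractions from 34.8% to 38.2% were found in another 4 named members. LOC103648029 had 11 gapped reads of 75, and its fraction was 38.2%. LOC100191930 had 25 of 264 and a fraction of 38.0%. The transcript of LOC100037776, or ppt1, which encodes a translocator that exchanges phosphoenolpyruvate for phosphate across the plastid envelope, had 18 of 206 and a fraction of 35.1%. In LOC100275271 it was 14 of 106, with a fraction of 34.8%. The gap-ratio intervals of these 4 sites overlapped, so the order of their gap ratios was not resolved. The bases around the site differed in all 4, and the order of the fractions carries the calibration as well.

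**Figure D2:**
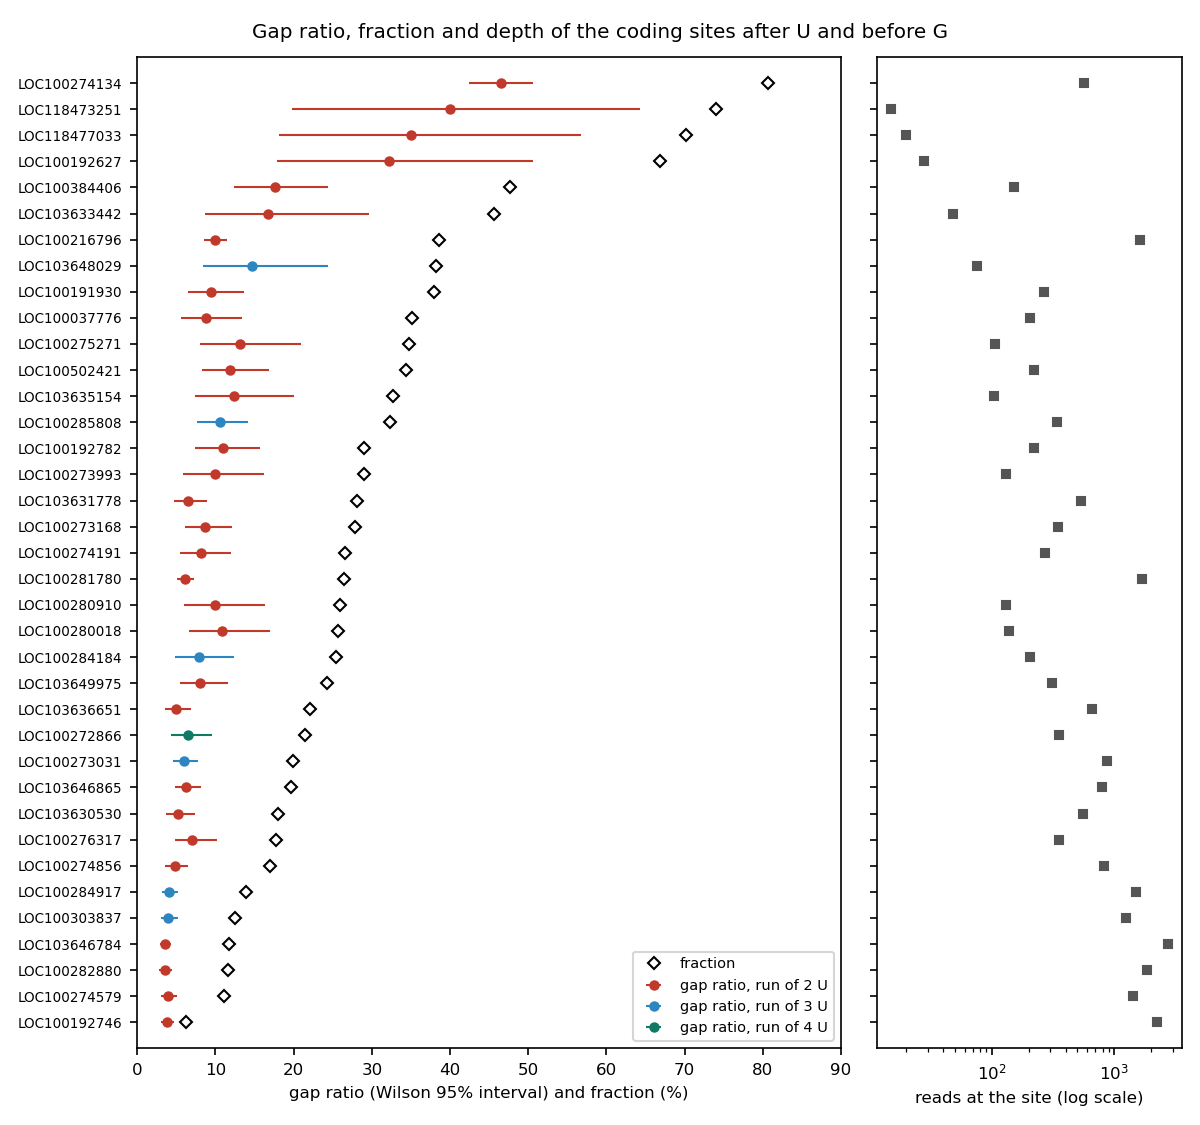
On the left, filled points give the gap ratio of each of the 37 sites with its Wilson 95% interval, coloured by the length of the U run, and open diamonds give the fraction, both in percent; on the right is the depth in reads (log scale). Genes are ordered by fraction, from 80.7% in LOC100274134 to 6.29% in LOC100192746, and the widest intervals belong to sites under 50 reads.

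The 5 lowest fractions belonged to well-covered sites. LOC100192746, on chromosome 1 at position 68070644, had 84 gapped reads of 2225, a gap ratio of 3.78% (3.06% to 4.65%) and a fraction of 6.29%. This fraction was below those of all 20 coding sites of single-site genes nearest to it in depth. The transcript of LOC100274579, with the synonym Pgk-2 for phosphoglycerate kinase, an enzyme of glycolysis and of carbon fixation, had 56 of 1429 and a fraction of 11.1%. LOC100282880, or rps12, which encodes a protein of the small ribosomal subunit, had 65 of 1843 and a fraction of 11.6%. The deepest site, in LOC103646784, had 98 of 2746 and a fraction of 11.7%, and LOC100303837 had 49 of 1235 and a fraction of 12.5%. The gap ratios of these 5 sites lay between 3.53% and 3.97%, within each other's intervals, whereas the fraction of LOC100192746 was 6.29% and the next was 11.1%. The step was in the calibrated value and not in the gap ratio.

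The gap ratio fell as the depth rose, over the members and over the other sites alike. The 4 sites under 50 reads had a median fraction of 68.5%, the 7 with at least 50 but under 200 reads 32.8%, the 16 with at least 200 but under 800 reads 27.2% and the 10 with at least 800 reads 13.2%. In the other coding sites the same classes gave medians of 75.5%, 37.0%, 24.1% and 17.2%. Spearman's rho between depth and gap ratio was −0.834 over the 37 sites and −0.835 over the 230 others, given as a description because the depth is also the denominator of the gap ratio. No listed member had fewer than 6 gapped reads. The authors had filtered the sites by a P value whose threshold at each depth was not given in the sources used here, and its part in this relation was not tested. Each member was set against the 20 coding sites of single-site genes nearest in depth, which could include other members. Of the 37 members, 17 had a gap ratio above the median of those neighbours, and 32 were within 1.5 times of it.

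**Figure D3:**
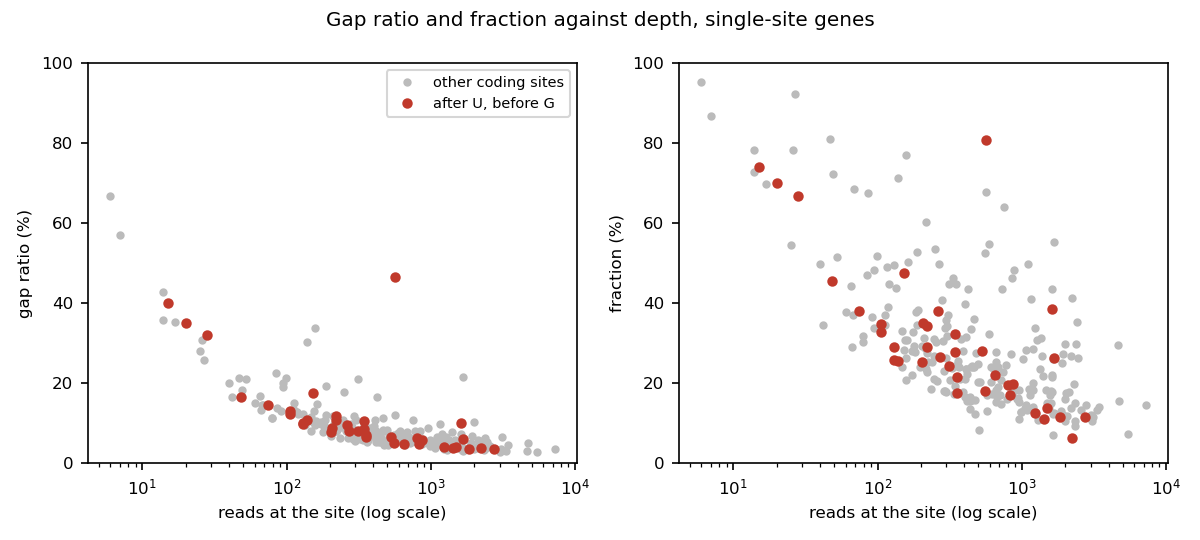
The gap ratio (left, %) and the fraction (right, %) of coding sites of single-site genes are plotted against the number of reads at the site (log scale), with the 37 sites after U and before G in red and the 230 others in grey. Most red points follow the grey band downwards from left to right, and LOC100274134, with 566 reads and a gap ratio of 46.5%, lies far above it.

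The conversion from gap ratio to fraction differed with the bases around the site. The quotient of fraction over gap ratio had a median of 3.07 in the members and ran from 1.67 to 4.50. With GUUGC around the site, 11 listed sites, 5 of them members, had quotients from 3.50 to 4.58. With CUUGC, 10 listed sites, 7 of them members, had quotients from 1.40 to 2.66, a range that did not overlap the former. Thus LOC100216796 (GUUGC) with a gap ratio of 9.96% was given a fraction of 38.6%, and LOC100280910 (CUUGA) with 10.0% one of 25.9%. Within each 5-base context that held a member and another site, the order of the fractions was that of the gap ratios. Comparisons of fractions between members of different contexts therefore carry the calibration as well as the reads.

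The run of U was short in most cases. It had 2 bases in 30 sites, 3 in 6 and 4 in 1, so that 7 of 37 (18.9%) had at least 3. Elsewhere in the windows of all 267 coding sites of single-site genes, 5 of 35 runs of at least 2 U before a G (14.3%) were that long, and of the UΨC sites it was 6 of 42 (14.3%). Sites in a run of 2 had a median fraction of 28.0%. The 7 sites in longer runs had a median of 21.5%, from 12.5% to 38.2%, inside the range of the former. LOC100272866, with the run of 4, lay on chromosome 7 at position 34974049 and had 23 gapped reads of 355, a gap ratio of 6.48% (4.36% to 9.53%) and a fraction of 21.5%. Within the set, a longer run did not go with a higher fraction.

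The base after the G was C in 18 sites, U in 9, G in 6 and A in 4. C at this place, base 13, was found in 48.6% of members. It was found in 27.1% of all 388 sites and in 66.7% of UΨC sites. Medians of the fraction were 28.5% before C, 24.2% before U, 27.2% before G and 30.1% before A. The median gap ratios were 8.29%, 8.01%, 8.40% and 10.9%, and the 4 sites before A include LOC100274134. This base belongs to the 5-base context, so the fractions carry the calibration as well. Before the pair of U, the base was G in 15 sites, C in 14, U in 7 and A in 1. G at this place, base 9, was found in 40.5% of members, 61.1% of all 388 sites and 42.9% of UΨC sites.

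A shared stretch was seen in 7 windows, in which UUGUAG covered bases 10 to 15, and they are printed because they are alike. LOC103648029, shown above, is one of them, and the other 6 follow, with the same meaning of the capitals.
LOC100273993: gcaaguuggUUGuagaggaau
LOC103649975: cagaaauggUUGuagguuggu
LOC103646865: guguugcggUUGuagagaaca
LOC100303837: uaucggagUUUGuagugaugg
LOC103646784: cgucgcaggUUGuagaaggug
LOC100282880 (rps12): caaggaaggUUGuaggcugcu
In 5 of the 7 the stretch began earlier, as GGUUGUAG. UUGUAG was searched on the transcript strand after the windows had been seen, and it occurred anywhere in 12 of all 388 windows (3.09%) and in 1 of the 230 other coding windows. The choice of members fixed UUG at the site and kept it from the site in the 230 others, so these shares cannot be set against the 7 of 37. Of the 36 UUG elsewhere in the 267 coding windows with at least 3 more bases in the window, 1 (2.78%) was followed by UAG. At the listed site UUGUAG also occurred in 3 of the 12 UΨG sites outside coding sequences. It occurred in 0 of the 6 UΨG sites in coding sequences of genes with several sites. Bases 11 to 15 of these windows read UGUAG, a form of UNUAG. With UNUAA, it is the context in which the synthase PUS7 of yeast and human modifies the middle U, which would here be base 13 and not the listed base 11. A match is a description of the letters, and binding by such an enzyme was not measured. The 7 sites had a median fraction of 19.6%, from 11.6% to 38.2%, at a median depth of 797 reads.

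Another pair of windows shared 13 bases in a row around the site, bases 6 to 18, the longest such stretch between any 2 members.
LOC118477033: cucacaggcUUGcgaccuguu
LOC103635154: cacggaggcUUGcgaccuccc
In both, 5 stacked pairs closed a loop of 7 bases with the site in it. The reading frames differed, since the listed U was the middle base of a UUG codon for leucine 996 in LOC118477033 and the first base of a UGC codon for cysteine 16 in LOC103635154. LOC103635154, on chromosome 8 at position 46447870, had 13 gapped reads of 105, a gap ratio of 12.4% (7.38% to 20.0%) and a fraction of 32.8%, and its interval overlapped that of LOC118477033.

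A hairpin, taken as at least 4 stacked Watson-Crick or G-U pairs around a loop of 3 to 9 bases that holds the site, could be drawn in 23 of the 37 windows (62.2%). It could be drawn in 205 of all 388 windows (52.8%) and in 120 of the 230 other coding windows (52.2%). Stems of at least 5 pairs were found in 11 members (29.7%) and in 54 of the others (23.5%). The longest stem of the set, 8 pairs around a loop of 3, was in LOC100272866, the site in the run of 4 U. Members with a hairpin had a median fraction of 32.3% and a median depth of 342 reads, and those without had 25.5% and 402 reads. Both groups spanned most of the range, and pairing in the cell was not measured. In 3 of the 37 members the window read here differed from the one listed along the transcript. LOC100037776, counted with a hairpin, was one of them.

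Most of the sites, as listed, fell on the last base of a codon. The listed base is the last U of its run, and the gap does not tell which U it marks. In 32 members 2 U of the run were in the same codon. Of the 230 other coding sites, 187 had no other U before the site and lacked this ambiguity. In LOC100037776 the listed codon (GUU) and amino acid (leucine) did not match, and its window along the transcript was shifted by a base, so it was left out of the codon counts. Of the other 36 sites, 4 were at codon position 1, 8 at position 2 and 24 (66.7%) at position 3. These 24 include all 7 sites in UUGUAG, a stretch that at position 2 would hold an in-frame UAG stop codon. Among the other coding sites with a matching codon, 56 of 225 (24.9%) were at position 3, and among UΨC sites 4 of 42 (9.52%). The same 3 bases, UUG, occurred 44 times elsewhere in those 267 windows, counting only windows that matched the transcript and its codon, and the last U was at position 3 in 23 of these (52.3%), which is nearer to the members' share than that of the other coding sites.

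At position 3 the codons were GUU for valine in 12 sites, UUU for phenylalanine in 6, CUU for leucine in 5 and AUU for isoleucine in 1, which is to say codons that end in UU before a codon that begins with G. The flanking bases fix the codon at position 2, where the 8 sites could only be in UUG for leucine, and they fix the last letters UU at position 3 and the first letters UG at position 1. The 4 sites at position 1 were in UGC for cysteine. Fractions hardly differed with the position, with medians of 27.7% at position 1, 27.01% at position 2 and 26.1% at position 3. The 4 cysteine sites had fractions from 19.9% to 32.8% and the highest fraction of all members, in LOC100274134, was at position 3.

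**Figure D4:**
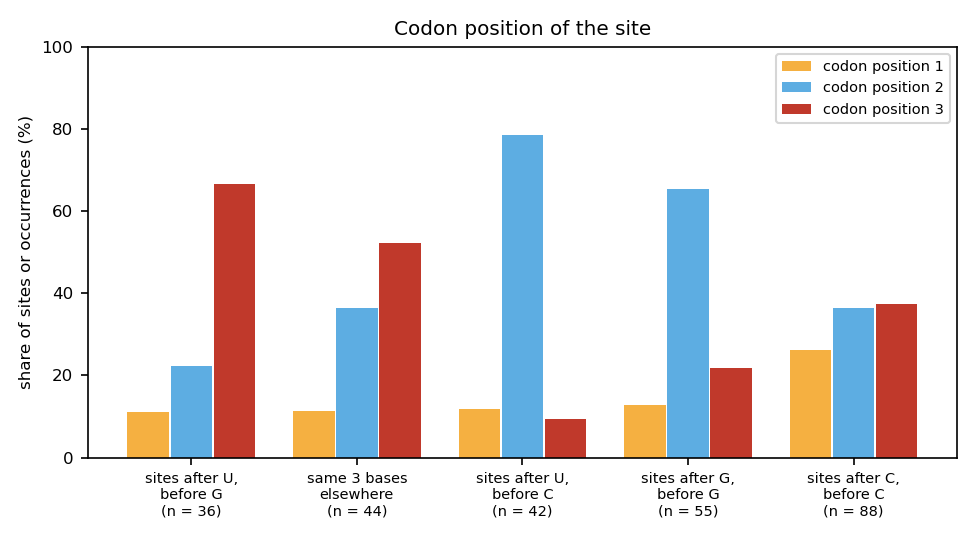
Bars give the share (%) of sites at codon positions 1, 2 and 3 for the sites after U and before G (36 with a matching codon), for UUG elsewhere in the coding windows (44 occurrences, position of the last U) and for sites of the 3 other contexts. Position 3 holds 66.7% of the sites after U and before G, 52.3% of UUG elsewhere and 9.52% of the sites after U and before C. For sites in a run of U, the position is that of the last U, where the gap was listed.

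The distance to a splice junction, listed with a sign that the sources used here do not define, was read without it. Its median was 52 bases in the members, from 6 to 1310, and 124 bases in the other coding sites. In 18 of the 37 (48.6%) a junction was listed within 50 bases, against 63 of 230 (27.4%), 9 of 42 UΨC sites (21.4%) and 14 of 58 GΨG sites (24.1%). CΨC sites, with a median of 85.5 bases and 32 of 90 (35.6%) within 50 bases, lay between. Within 100 bases it was 24 of the 37 members (64.9%) and 52 of the 90 CΨC sites (57.8%). Of the 7 sites in UUGUAG, 6 were within 50 bases, at a median of 17, and so were 12 of the other 30 members. The closest were LOC100192627 at 6 bases, LOC103646784 at 7 and LOC100192746 at 9. The windows of LOC100192627 and LOC103646784 differed at an end from the windows listed along the transcript, and the listed junction lies inside the printed window. The distance went with the fraction at a Spearman's rho of 0.427 over the 37 sites and 0.103 over the 230 others, while depth fell with distance (rho −0.397 and −0.0941), and the part of depth in this was not tested.

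Along the coding sequence the sites were spread from base 27 to base 4611, with a median at base 540. Early positions were found in LOC100502421 (base 27, valine 9), LOC103635154 (base 46), LOC100192746 (base 63, leucine 21) and LOC103646784 (base 90, valine 30). The fractions of these 4 were 34.3%, 32.8%, 6.29% and 11.7%, both above and below the median of all members. Over the 37 sites the coding position went with the fraction at a Spearman's rho of 0.374, and over the 230 others at 0.0451, while depth fell with the coding position (rho −0.463 and −0.105), and the part of depth in this was not tested.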

How the data were processed

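Per the labels, BID-seq of B73 shoots comprised 2 untreated (input) and 2 treated libraries. The authors aligned the reads to Zm-B73-REFERENCE-NAM-5.0, called and filtered the sites, and combined the replicates; the aligner version and the filter threshold are not given in the sources used here. For each site the authors deposited a count of reads, a gap ratio, a calibrated fraction and a pass score of 1 or 2 without a definition. Whether the count holds treated reads alone is not stated. The score served only to split the list.

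Here, gapped reads were the product of depth and gap ratio, which was whole to within 0.00244. Wilson 95% intervals, medians and counts were computed in Python 3.11.15 with pandas 2.3.3, numpy 2.4.6 and scipy 1.17.1, and figures were drawn with matplotlib 3.10.9. Scripts were tested on simulated data. Gene spans and synonyms come from RefSeq, where all 37 genes were found, and gene identifiers from the deposited expression table. Residue numbers were computed from the deposited coding position. The listed residue numbers equalled these in 9 members and were 1 higher in 26 and 2 higher in 2.

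No test was run over sites. The members and lists were chosen with earlier results of these data known. Named sites were the 8 highest and 5 lowest fractions among members with at least 40 reads, the 5 deepest, runs of at least 4 U, and the 4 members under 50 reads; others named were chosen after their values or windows were seen, as were the searches for UUGUAG, the UUG elsewhere (codon position and following bases) and the comparison with the 20 sites nearest in depth. Neither of the 2 expression columns was used, because each name matches an input and a treated library. The RefSeq table used gives symbols and synonyms without descriptions, so gene groups were not counted.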

Additional observations from a re-analysis of the deposited data

How the results depend on the processing

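Of 33 alternative values computed for 7 results, 29 stayed within the limits set for them and 4 moved. The share of members under 20% was 29.7% and became 89.2% when the gap ratio was classed instead. The share over 50% was 10.8%, and it became 3.03% with at least 50 reads, 3.85% with at least 200 reads and 0% with the gap ratio. The limits are not stated here, and some values counted as within them changed a good deal. The difference in median fraction from the other coding sites was 1.86 points and became 6.83 points at a pass score of 2. The share under 20% became 42.3% with at least 200 reads. Both were counted as unmoved. The median fraction ran from 23.2% (at least 200 reads) to 33.3% (pass score of 2, 8 sites), and the share at codon position 3 from 59.5% (all coding UΨG sites) to 72.0% (at least 200 reads).

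No paired analysis was possible because the list combines the replicates and gives no value per library. For the same reason no replicate was left out, and the alternatives for expression were not run. Depth limits the sites under 50 reads most, where intervals of the gap ratio span over 20 percentage points.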

Other observations

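Another 18 UΨG sites lay outside the set. The 6 in coding sequences of genes with several sites had fractions from 9.14% to 49.5% with a median of 16.5%, at depths from 661 to 4305 reads. The highest of these, in LOC542277, had 460 gapped reads of 2267, a gap ratio of 20.3% (18.7% to 22.0%). The 12 outside coding sequences, 10 of them in 3′ UTRs, had fractions from 4.69% to 48.2% with a median of 25.0%, at depths from 133 to 2262 reads.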
